A study of Homo sapiens with 22 samples.

Results

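Small nucleolar RNA (snoRNA) host genes are the subject: the 28 GENCODE genes named SNHG with a number, together with GAS5, ZFAS1 and DANCR, 31 of the 38864 protein-coding and long noncoding RNA (lncRNA) genes annotated on hg19. They were chosen by name and not by any measured value, though earlier results of these data were known when the choice was made. A snoRNA host gene carries snoRNAs in its introns. The snoRNAs are released when the transcript is spliced and debranched, and they then guide chemical modification of ribosomal RNA (C/D box snoRNAs direct methylation, H/ACA box snoRNAs direct pseudouridylation) or, for the Cajal body forms (scaRNAs), of spliceosomal RNA. Many spliced host transcripts have little coding capacity and are removed by nonsense-mediated decay, and several begin with a run of pyrimidines (a terminal oligopyrimidine, or TOP, start) like the ribosomal protein mRNAs. By RefSeq positions, 30 of the 31 genes had at least 1 snoRNA or scaRNA within their span, 66 in all outside SNHG14, with 11 in GAS5 and 9 in SNHG1, and SNHG14 alone had 84.

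N-MYC is a transcription factor of the MYC family that pairs with MAX and prefers the E-box CACGTG, and WDR5 is a WD40-repeat adaptor of histone methyltransferase complexes that also binds MYC proteins. Both proteins were mapped by chromatin immunoprecipitation and sequencing (ChIP-seq) in 2 neuroblastoma lines that carry extra copies of the gene for N-MYC, with the aim of learning how WDR5 bears on where N-MYC sits. CHP-134 cells received the solvent DMSO (3 libraries for N-MYC, 3 for WDR5) or a compound (3 and 3) for 4 h. The labels name the compound in several ways, so it is left unidentified, and they give the DMSO level as 0.0005% in one field and 0.005% in another. IMR-32 cells were not treated (2 and 2 libraries). Each library pooled 3 immunoprecipitations of the same line. The CHP-134 lists came from single reads and the IMR-32 lists from read pairs on another instrument, so cell line, solvent and sequencing cannot be told apart in the comparison of lines.

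The files held peaks and no read counts, so depth was unknown and no interval from counts could be given. The N-MYC lists held 9125 to 15286 peaks in DMSO, 2964 to 12313 with the compound and 5242 to 8286 in IMR-32. The WDR5 lists held 1671 to 4891 peaks in DMSO and 1258 to 1693 in IMR-32. With the compound, the WDR5 lists held 5973, 15 and 401 peaks (replicates 1 to 3), so whether a gene missing from replicates 2 and 3 lost WDR5 or fell below detection cannot be told apart. Peak strength is the fold enrichment given by the peak caller, expressed as its percentile among all peaks of the same list. A gene was called for a protein where at least 2 libraries of a group had a summit within 1000 bp of a transcription start site (TSS) of the gene. The 31 genes had 152 annotated TSSs and all genes 84637, so a host gene offered more sites to a peak than the average gene.

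N-MYC was called at most host genes and WDR5 at fewer. In CHP-134 DMSO cells, N-MYC was called at 24 of the 31, against 24.7% of all genes, 11.8% of lncRNA genes and 36.8% of protein-coding genes. WDR5 was called at 13 of the 31, against 5.45% of all genes, and both proteins at 12, against 4.9%. N-MYC peaks at the host genes also stood high in their lists: the median percentile of the members with a peak was 86 ± 2.99 (SD over 3 libraries), where that of all genes with a peak averaged 56.7. For WDR5 the median was 60.3 ± 17.9 (SD, n = 3), against 53.5 for all genes, a difference smaller than the spread of the libraries. Of the 31 genes, 27 had a peak in at least 1 of the 16 lists. SNHG14, SNHG18, SNHG27 and SNHG28 had none.

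**Figure D1:**
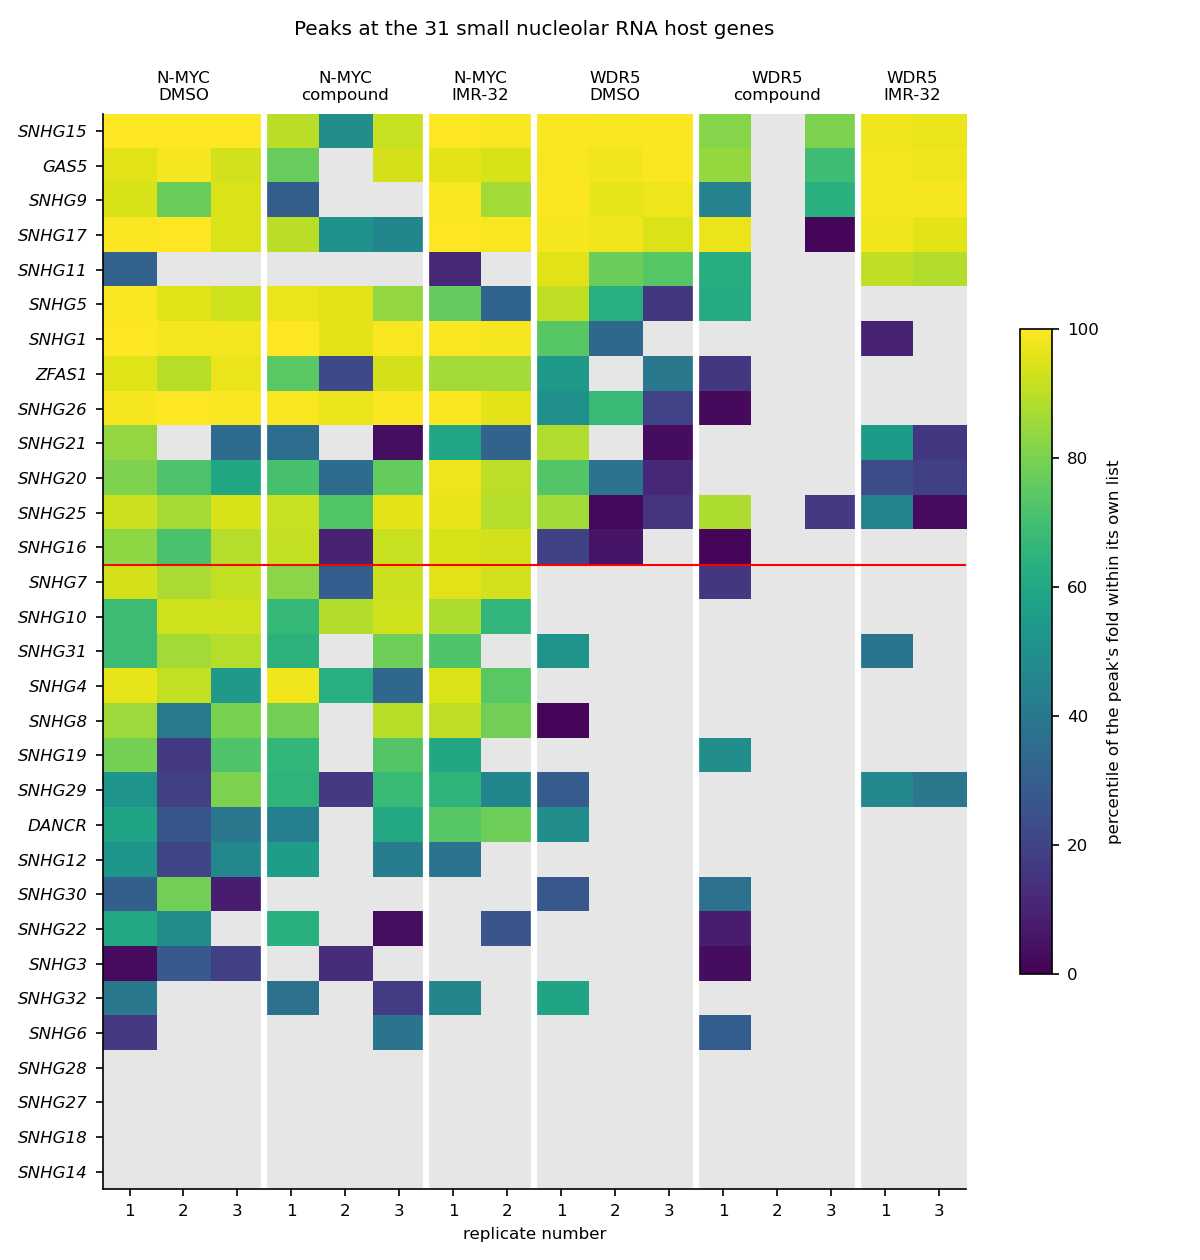
Percentile of the peak's fold (color, 0 to 100) at each of the 31 host genes (vertical axis) in each of the 16 libraries (horizontal axis, grouped by protein and condition; grey means no peak listed). The 13 genes above the red line were called for WDR5 in DMSO; the first 4, SNHG15, GAS5, SNHG9 and SNHG17, hold the top WDR5 values in DMSO and IMR-32.

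The 13 genes with WDR5 fell into 4 with very strong peaks and 9 with lower or variable ones. SNHG15, GAS5, SNHG9 and SNHG17 lay above the 90th percentile in every DMSO library (94.85 to 99.49), as did 192 of all genes. SNHG15 (chr7:45022618-45026560, minus strand) hosts SNORA9. Its WDR5 percentiles were 99.5, 99.1 and 99.3 in the 3 DMSO libraries, at 57.9-, 68.1- and 70-fold enrichment, and its N-MYC percentiles were 99.9 in all 3, at 24.5-, 25.4- and 30.5-fold. No other host gene had a higher mean for either protein. The summits lay in an intron of SNHG15, 326 to 364 bp (N-MYC) and 327 to 335 bp (WDR5) downstream of the nearest TSS. The amplicon of 90 bp that the study designed to track this site by ChIP-QPCR (chr7:45026092-45026181, matched here to GRCh37) covers the WDR5 summit at position 45026106.

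The stretches below show where both proteins peaked at SNHG15 and at the genes compared with it: 151 bases of GRCh37 (the same build as hg19) centered on the summit with the best q-value in DMSO, on the strand of the gene, with CACGTG in capitals. SNHG15 has an E-box on either side of its summits, at chr7:45026018-45026023 and chr7:45026148-45026153.
SNHG15, N-MYC summit, chr7:45025994-45026144, minus strand: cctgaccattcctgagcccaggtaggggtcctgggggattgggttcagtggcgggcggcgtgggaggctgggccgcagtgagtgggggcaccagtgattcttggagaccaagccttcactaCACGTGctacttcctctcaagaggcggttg
SNHG15, WDR5 summit, chr7:45026031-45026181, minus strand: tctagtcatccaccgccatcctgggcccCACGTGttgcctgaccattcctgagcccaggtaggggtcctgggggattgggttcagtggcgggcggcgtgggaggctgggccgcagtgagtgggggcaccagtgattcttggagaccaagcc
SNHG17, N-MYC summit, chr20:37063758-37063908, minus strand: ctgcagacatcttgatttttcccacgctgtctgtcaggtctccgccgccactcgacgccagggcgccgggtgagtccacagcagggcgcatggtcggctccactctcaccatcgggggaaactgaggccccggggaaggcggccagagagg
GAS5, N-MYC summit, chr1:173836720-173836870, minus strand: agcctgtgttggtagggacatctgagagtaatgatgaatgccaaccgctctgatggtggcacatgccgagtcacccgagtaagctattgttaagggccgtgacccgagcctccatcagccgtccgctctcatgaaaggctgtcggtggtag
GAS5, WDR5 summit, chr1:173836878-173837028, minus strand: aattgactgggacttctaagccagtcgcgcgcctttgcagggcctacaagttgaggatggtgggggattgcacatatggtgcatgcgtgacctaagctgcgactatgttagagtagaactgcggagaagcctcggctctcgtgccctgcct
SNHG26, N-MYC summit, chr7:22893933-22894083, plus strand: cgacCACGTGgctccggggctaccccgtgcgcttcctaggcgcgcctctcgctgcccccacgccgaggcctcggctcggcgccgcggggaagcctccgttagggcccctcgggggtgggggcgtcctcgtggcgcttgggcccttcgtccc
SNHG5, N-MYC summit, chr6:86388895-86389045, minus strand: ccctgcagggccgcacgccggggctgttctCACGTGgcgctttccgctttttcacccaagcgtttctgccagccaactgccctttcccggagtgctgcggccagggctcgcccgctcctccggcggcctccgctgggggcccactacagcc
SNHG11, WDR5 summit, chr20:37075431-37075581, plus strand: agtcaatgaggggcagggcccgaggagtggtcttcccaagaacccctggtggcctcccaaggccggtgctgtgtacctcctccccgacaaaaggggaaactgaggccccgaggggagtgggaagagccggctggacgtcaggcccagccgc
Neither stretch at GAS5 holds CACGTG, nor do those at SNHG17 and SNHG11; SNHG26 and SNHG5 have 1 each, upstream of the summit.

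GAS5 (chr1:173827697-173838020, minus strand) hosts a cluster of C/D box snoRNAs, among them SNORD44 and SNORD74 to SNORD81, and its spliced RNA accumulates when growth stops. Its WDR5 percentiles in DMSO were 98.9, 98 and 99.3 and its N-MYC percentiles 95.5, 98.6 and 93.2. The WDR5 percentile was above the N-MYC percentile in libraries 1 and 3 and below it in library 2. Both summits were exonic, with WDR5 on average 142.3 bp upstream of N-MYC. The TSS of ZBTB37, on the opposite strand, lies within 1000 bp of the same peaks, so the peaks cannot be assigned to GAS5 alone.

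SNHG9 (chr16:2014896-2015510, plus strand) hosts SNORA78 and lies head to head with RPS2, which encodes a protein of the small ribosomal subunit. Its WDR5 percentiles were 99.3, 96.4 and 97.4, and its N-MYC percentiles were 93.9, 77.4 and 94.2, so each WDR5 value was above every N-MYC value. Both summits fell in an exon of RPS2, at chr16:2014703 (N-MYC) and chr16:2014691 (WDR5), outside SNHG9 itself.

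SNHG17 (chr20:37048285-37064052, minus strand) hosts the SNORA71 family. Its WDR5 percentiles were 98.8, 97.7 and 94.9 and its N-MYC percentiles 99.3, 99.6 and 94.5. The 2 sets overlapped. The summits were exonic, with WDR5 25 bp upstream of N-MYC on average. SNHG11 (chr20:37074986-37079583, plus strand), the host of SNORA60, lies close by and was the single member called for WDR5 and not for N-MYC: WDR5 stood at 95.5, 77.2 and 73.5, and N-MYC was listed in library 1 alone, at 31.3.

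The other 8 genes with WDR5 had N-MYC percentiles from 35.1 to 99.8 and WDR5 percentiles from 2.27 to 90.4. SNHG1, the host of SNORD22 and SNORD25 to SNORD31, had N-MYC at 99.8, 98.5 and 98.1 and WDR5 at 73.9, 33.3 and not listed. Its best N-MYC summit lay outside SNHG1, in an exon of SLC3A2, which has a TSS within 1000 bp of one of SNHG1. The N-MYC peak therefore cannot be assigned to SNHG1 alone. SNHG26, which hosts SNORD93, had N-MYC at 98.7, 99.8 and 99.3 and WDR5 at 50.2, 67.6 and 19.9. SNHG5, which hosts SNORD50A and SNORD50B, had N-MYC at 99.4, 95.3 and 92.8 and WDR5 at 90.4, 62.6 and 16. At each of the 3, every N-MYC value lay above every WDR5 value.

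ZFAS1, which hosts the SNORD12 group and starts opposite ZNFX1, had N-MYC at 95, 89.4 and 97.2 and WDR5 at 53.8, not listed and 39.9. SNHG25, the host of SNORD104, had N-MYC at 92.3, 86.5 and 93.9 and WDR5 at 86.2, 2.27 and 15.3. SNHG16, the host of SNORD1A to SNORD1C, had N-MYC at 83.1, 71.3 and 88.8 and WDR5 at 19.7, 5.86 and not listed. These 3 again showed no WDR5 value as high as an N-MYC value. SNHG20, the host of SCARNA16, had N-MYC at 80.7, 72.1 and 60 and WDR5 at 73.4, 38 and 11.2. SNHG21, the host of SCARNA15, had N-MYC at 83.7, not listed and 35.1 and WDR5 at 88.2, not listed and 3.35. At SNHG20 and SNHG21 the values of the 2 proteins overlapped. SEC14L1 has a TSS within 1000 bp of one of SNHG20, and SNHG16 and SNHG21 each have a lncRNA gene as near.

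The order of the 2 proteins was tested with limma on normal scores of the ranks among the 572 features with a peak in all 6 DMSO libraries, where genes with identical peaks counted as 1 feature. The test called 258 features (45.1%), 129 in each direction, and 4 of the 8 members it could test. SNHG9 stood higher in the WDR5 order (score difference, WDR5 minus N-MYC, 1.01, SE 0.305, adjusted p = 0.024). SNHG26 (-2.48, SE 0.365, adjusted p = 0.0016), SNHG25 (-1.64, SE 0.461, adjusted p = 0.018) and SNHG5 (-1.5, SE 0.425, adjusted p = 0.019) stood higher in the N-MYC order. SNHG15, GAS5, SNHG20 and SNHG17 did not pass (limma, adjusted p = 0.15, 0.14, 0.2 and 0.82). With the replicate number as a block, the same 4 members passed (limma, adjusted p = 0.008 at SNHG9, 7.1e-05 at SNHG26, 0.0025 at SNHG25 and 0.00084 at SNHG5). With only peaks of −log10 q of at least 5, 5 members could be tested, and SNHG26, SNHG25 and SNHG5 were not among them. There 2 members passed, SNHG9 (limma, adjusted p = 0.042) and 1 that stood higher in the N-MYC order. Libraries were left out in turn from the main fit only, with all peaks and no block. There SNHG26 passed without any 1 of the 6 libraries. SNHG9 did not pass without N-MYC library 2 or WDR5 library 1 or 3 (limma, adjusted p = 0.077, 0.086 and 0.059), SNHG5 without N-MYC library 1 or WDR5 library 2 or 3 (0.072, 0.076 and 0.2), and SNHG25 without N-MYC library 1 or 3 or WDR5 library 2 or 3 (0.057, 0.061, 0.14 and 0.12). On log2 fold values centered on their median, in place of ranks, the WDR5 values of the strongest sites spread further: SNHG15, SNHG17 and GAS5 were then also higher for WDR5, by 1.55, 1.69 and 2.52 on the log2 scale (limma, adjusted p = 0.0001, 0.00042 and 6.7e-06), which turned the direction for SNHG15 and SNHG17.

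**Figure D2:**
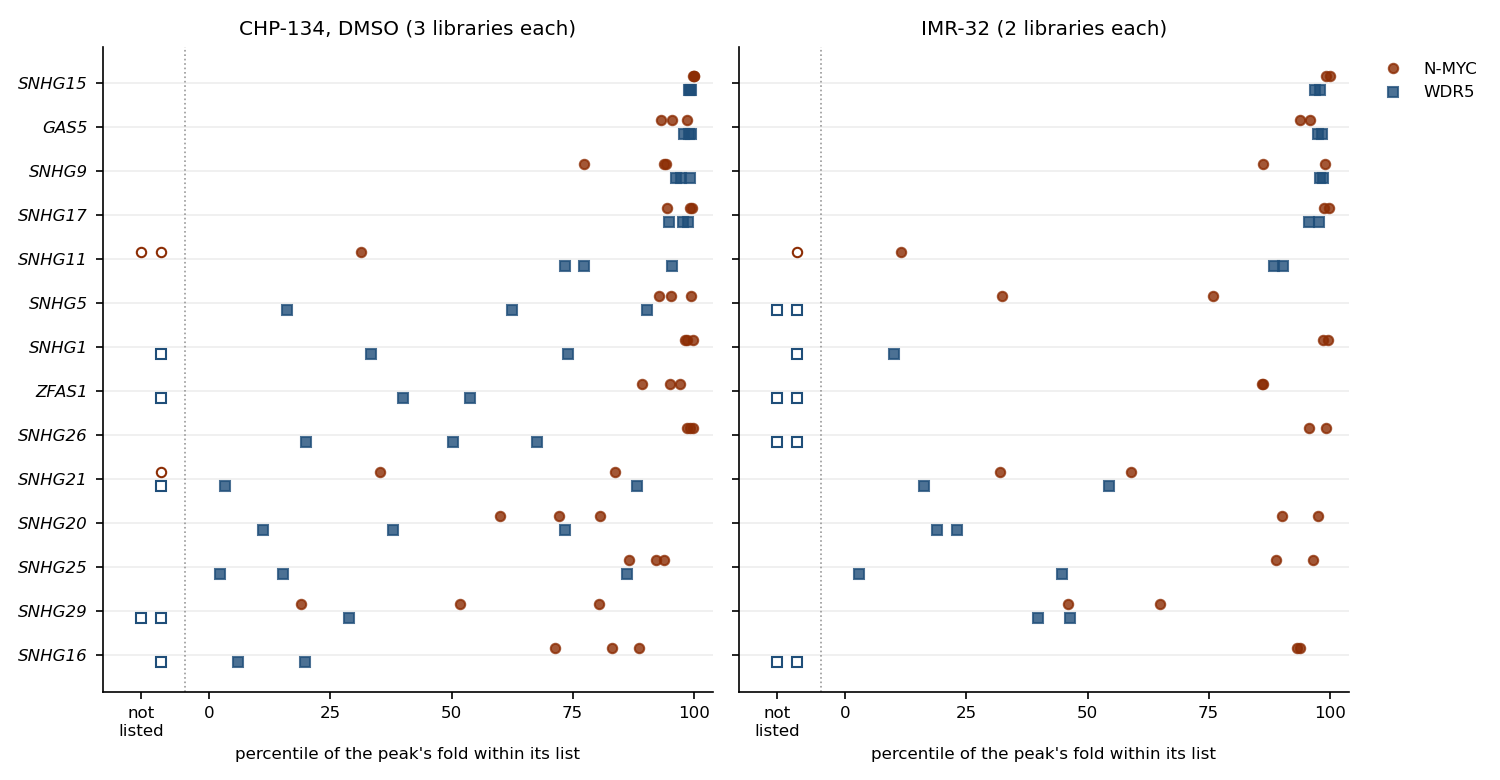
Percentile of the peak's fold within its list (horizontal axis) for N-MYC (circles) and WDR5 (squares) at the 14 genes called for WDR5 in either line (vertical axis), 1 symbol per library; open symbols left of the dotted line mark libraries with no peak. The top 4 genes have both proteins above 75 in every library of both lines, while at SNHG1 and SNHG26 N-MYC is above 95 and WDR5 is below 75 or not listed.

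In DMSO, where 24.7% of all genes had N-MYC and 4.9% had both proteins, N-MYC without WDR5 was called at 12 members. Their mean N-MYC percentile ran from 16.7 ± 12.6 at SNHG3 to 90.6 ± 3.24 at SNHG7 (SD, n = 3). The 3 with the highest means were SNHG7 (93.7, 87.2 and 90.8), the host of SNORA17A and SNORA17B, SNHG10 (68.6, 92.6 and 92.6), the host of SCARNA13, and SNHG31 (68.4, 86 and 89). The 3 with the lowest were SNHG3 (3.01, 27.9 and 19.1), SNHG30 (30.3, 78.8 and 8.16) and SNHG12 (52.7, 21.1 and 46.4). At SNHG3 the summits lay 913 to 956 bp downstream of the TSS, inside introns of both SNHG3 and RCC1. The other 6 were DANCR, SNHG4, SNHG8, SNHG19, SNHG22 and SNHG29. Protein-coding genes had a TSS within 1000 bp of one of SNHG3 (RCC1), SNHG10 (GLRX5), SNHG31 (BARD1), SNHG4 (MATR3), SNHG19 (TRAF7) and SNHG22 (ACAA2). DANCR had the lncRNA gene LINC01618 as near. Peaks at these members cannot be assigned to the host gene alone. SNHG6 and SNHG32 had N-MYC in 1 DMSO library each and were not called. Of the 24 N-MYC calls, 10 had the best summit in an exon of the host gene, 4 in an intron and 10 outside it, and of the 13 WDR5 calls 9 were exonic, 1 intronic and 3 outside.

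The 2 summits were closest at SNHG15 and SNHG17. Over the 12 cobound members, the median distance between the mean WDR5 and mean N-MYC summit was 112 bp, where that of all 1904 cobound genes was 126 bp. With each replicate taken alone, the median over the members was 118, 85.5 and 129 bp (SD 22.7). The distance was 15.7 bp at SNHG15 and 25 bp at SNHG17, and 77.7 bp at SNHG9. At SNHG20 it was 129.3 bp, with WDR5 downstream in each library, and at SNHG1 191.5 bp, also downstream. At SNHG16 the WDR5 summits lay on either side of N-MYC, and at SNHG25 1 of the 3 lay among the N-MYC summits, so the mean distances of 159 bp at SNHG16 and 227 bp at SNHG25 do not stand for a fixed arrangement.

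**Figure D3:**
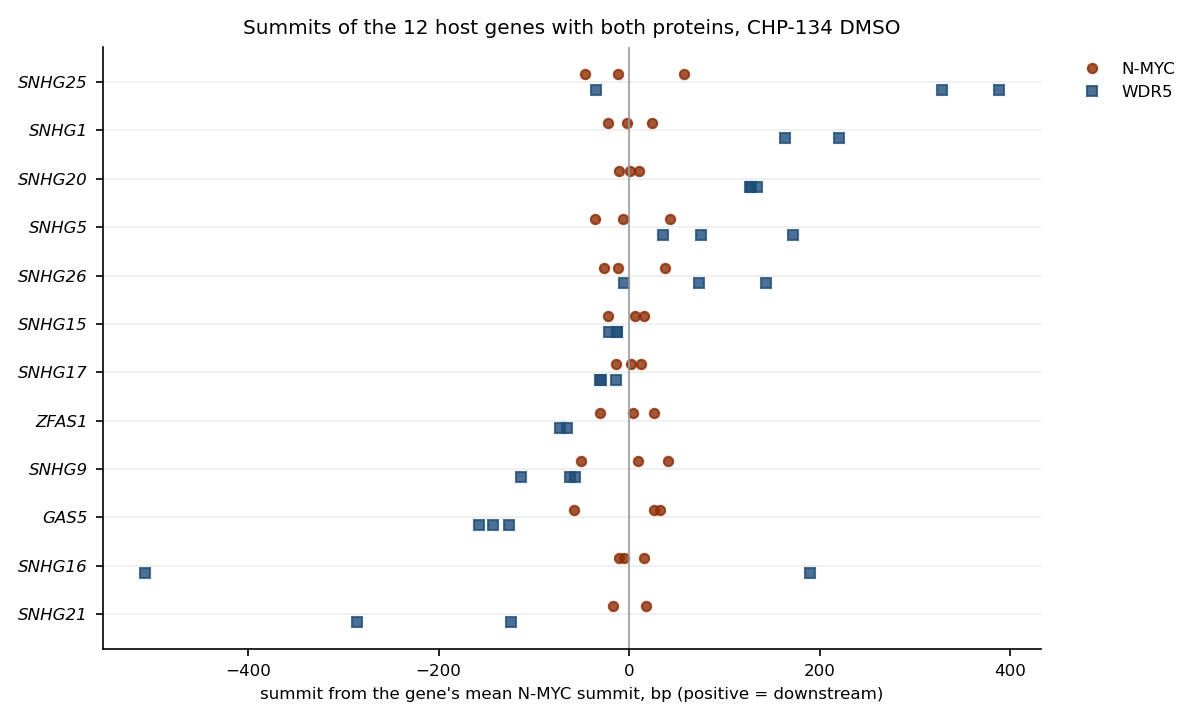
Summit positions along the gene's strand in bp from the mean N-MYC summit (horizontal axis) for the 12 members with both proteins (vertical axis) in the CHP-134 DMSO libraries, 1 symbol per library. At SNHG15 and SNHG17 the WDR5 summits sit within 50 bp of the mean N-MYC summit. At GAS5, SNHG20 and SNHG1 they stand apart from every N-MYC summit, as they do at other genes such as SNHG21 and ZFAS1.

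The E-box CACGTG, which reads the same on both strands, lay within 100 bp of the N-MYC summit at 10 of the 24 called members (41.7%), where 27.2% of the 7113 N-MYC summits of all genes had it. The 10 were GAS5, DANCR, SNHG4, SNHG5, SNHG26, SNHG15, SNHG29, SNHG30, SNHG25 and SNHG20. Within 50 bp it was 5 of 24 (20.8%), against 20.6% of all, and within 250 bp 16 of 24 (66.7%), against 33.9%, so the share above the rest was seen at the wider windows and not at the narrow one. The variant CACGCG or CGCGTG, searched on both strands and free to overlap the E-box, was within 100 bp at 7 of 24 (29.2%), against 28.4%. Around WDR5 summits, CACGTG within 100 bp was found at 2 of the 13 members (15.4%), SNHG5 and SNHG15, against 21.6% of all 1482 WDR5 summits. Within 50 bp it was 1 of 13 (7.69%), against 14.6%, and within 250 bp 8 of 13 (61.5%), against 33.7%. The share of the members was thus below the rest at the 2 narrower windows and above it at the widest. A TOP-like start, read as a C at the TSS followed by at least 4 C or T, was found at an annotated TSS of 11 of the 31 members (35.5%), against 3.9% of lncRNA genes and 8.41% of protein-coding genes; among 88 genes named as cytosolic ribosomal proteins it was 79.5%. Counted per TSS, which allows for the larger number of TSSs of the members, it was 11.2% for the members and 3.08% for all genes. The share was 5 of 13 members called for WDR5 and 6 of 18 not called. The first 20 bases of 4 such starts are given to show the pyrimidine run in capitals.
GAS5, TSS at chr1:173837127, minus strand: CTTTTCgaggtaggagtcga
SNHG16, TSS at chr17:74553851, plus strand: CTTTTCgaggtcggccgcgt
SNHG4, TSS at chr5:138609791, plus strand: CCTTTCCCCTCCggcctctg
SNHG12, TSS at chr1:28908385, minus strand: CCTTTCTCCCCgccgcattc

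In IMR-32 cells, N-MYC was called at 18 members, against 10% of all genes, WDR5 at 9, against 3.09%, and both at 8, against 1.63%. All 18 N-MYC calls and 8 of the 9 WDR5 calls were also made in CHP-134 DMSO cells, and 7 members were cobound in both lines: GAS5, SNHG15, SNHG21, SNHG9, SNHG25, SNHG20 and SNHG17. The paper reports almost all N-MYC peaks of IMR-32 as peaks of CHP-134 too. For WDR5 peaks and for cobound genes it reports a smaller share, though still the majority. The overlap over all genes was not counted here, so these overlaps cannot be read as particular to the members. SNHG29, the host of SNORD49A, SNORD49B and SNORD65, had WDR5 in both IMR-32 libraries (46.4 and 39.8) and in 1 of 3 DMSO libraries. The 4 strong WDR5 genes were strong in this line too: SNHG15 at 97.9 and 96.9, GAS5 at 98.3 and 97.5, SNHG9 at 98.1 and 98.6, and SNHG17 at 97.8 and 95.7. SNHG11 was at 90.4 and 88.5. WDR5 was not listed in either IMR-32 library at SNHG5, SNHG26, SNHG16 and ZFAS1, and was listed in 1 at SNHG1 (9.98).

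On ranks, no member passed a test between the lines; on log2 folds, 5 did for WDR5. For N-MYC, limma called 0 of 2424 features (0%) and found 332 with an unadjusted p under 0.05, 4 of them among the 17 members tested. The most extreme members were SNHG20, lower in CHP-134 (score difference -1.6, SE 0.491, adjusted p = 0.21; percentiles 80.7, 72.1 and 60 against 97.5 and 90.2), and SNHG5, higher in CHP-134 (1.65, SE 0.53, adjusted p = 0.22; 99.4, 95.3 and 92.8 against 75.9 and 32.3). At both the values of the 2 lines did not overlap. For WDR5, 9 of 440 features (2.05%) were called and none of the 7 members tested, and leaving out any 1 of the 5 libraries left 0 or 1 feature; 1 of the 7, SNHG11 (-0.614, SE 0.237, adjusted p = 0.24), had an unadjusted p under 0.05. On log2 folds centered on their median, 153 of the 440 features were called. The highest WDR5 fold was 78.3 to 100 in the CHP-134 DMSO lists and 307 and 277 in IMR-32, and centering does not even out that range. A line difference at a gene and the wider range of folds therefore cannot be told apart on this scale. Among them SNHG9, SNHG11 and SNHG17 were lower in CHP-134 (-1.11, -1.12 and -0.999 on the log2 scale; limma, adjusted p = 0.0057, 0.0056 and 0.014) and SNHG25 and SNHG20 were higher (1.04 and 0.933; adjusted p = 0.012 and 0.019). SNHG15 turned from 0.389 on the score scale to -0.435 on the log2 scale. The test of whether the line difference of N-MYC differed from that of WDR5 called 0 of 261 features (0%), with 32 at an unadjusted p under 0.05, among them SNHG20 (-1.8, SE 0.474, adjusted p = 0.17). On log2 folds it called 19, SNHG20 among them (-1.7; limma, adjusted p = 0.009).

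With the compound, N-MYC was called at 22 members, against 19.5% of all genes, and 21 of these were among the 24 of DMSO. Without compound library 1, or without library 3, the count was 13. The overlap of compound and DMSO calls over all genes was not counted, so that of the members cannot be read as particular to them. The peak at SNHG15 lost its place at the head of the lists. Its N-MYC percentiles were 99.9, 99.9 and 99.9 in DMSO and 89.7, 49.2 and 91.5 with the compound, with fold enrichments of 8.38, 5.18 and 9.85 in place of those given above. SNHG17 went from 99.3, 99.6 and 94.5 to 89.7, 51 and 45.9. At both genes every compound value was below every DMSO value. GAS5 went from 95.5, 98.6 and 93.2 to 76.6, not listed and 93.6, and SNHG9 from 93.9, 77.4 and 94.2 to 30.2 in library 1 and no peak in libraries 2 and 3. ZFAS1 went from 95, 89.4 and 97.2 to 74.5, 22.1 and 93.7, which overlap. SNHG26 (99, 97.1 and 99.5 with the compound) and SNHG1 (99.9, 95.7 and 99) kept percentiles of at least 95 in every library, and SNHG5 stood at 97, 95.4 and 83.7.

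Over the 1911 features with N-MYC in all 6 CHP-134 lists, limma without a replicate block called 0 (0%), with 14 at an unadjusted p under 0.05, 2 of them among the 13 members tested. Those were SNHG15 (score difference, compound minus DMSO, -2.42, SE 0.392, adjusted p = 0.15), the lowest of all 1911 features, and SNHG17 (-1.79, SE 0.552, adjusted p = 1), with 3 features below it. Libraries with the same number deviated together across features. With the replicate number as a block, 4 features (0.209%) were called, all lower with the compound, and 2 of them were members: SNHG15 (SE 0.283, adjusted p = 0.0033) and SNHG17 (SE 0.297, adjusted p = 0.027). STMP1, named after its values were seen, was also called (-1.92, adjusted p = 0.021). The block was fitted as the alternative to the fit without it, so both answers are given. ZFAS1 did not pass either fit (-0.846; limma, adjusted p = 1 and, blocked, 0.74), and the remaining 10 members had score differences from -0.383 (SNHG7) to 0.47 (SNHG29). The second compound library, with 2964 peaks, gave the lowest or missing value at SNHG15, GAS5 and ZFAS1 but not at SNHG17; without it, SNHG15 and SNHG17 stayed lower. GAS5 and SNHG9 were outside the fit because they lacked a peak in at least 1 compound list.

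**Figure D4:**
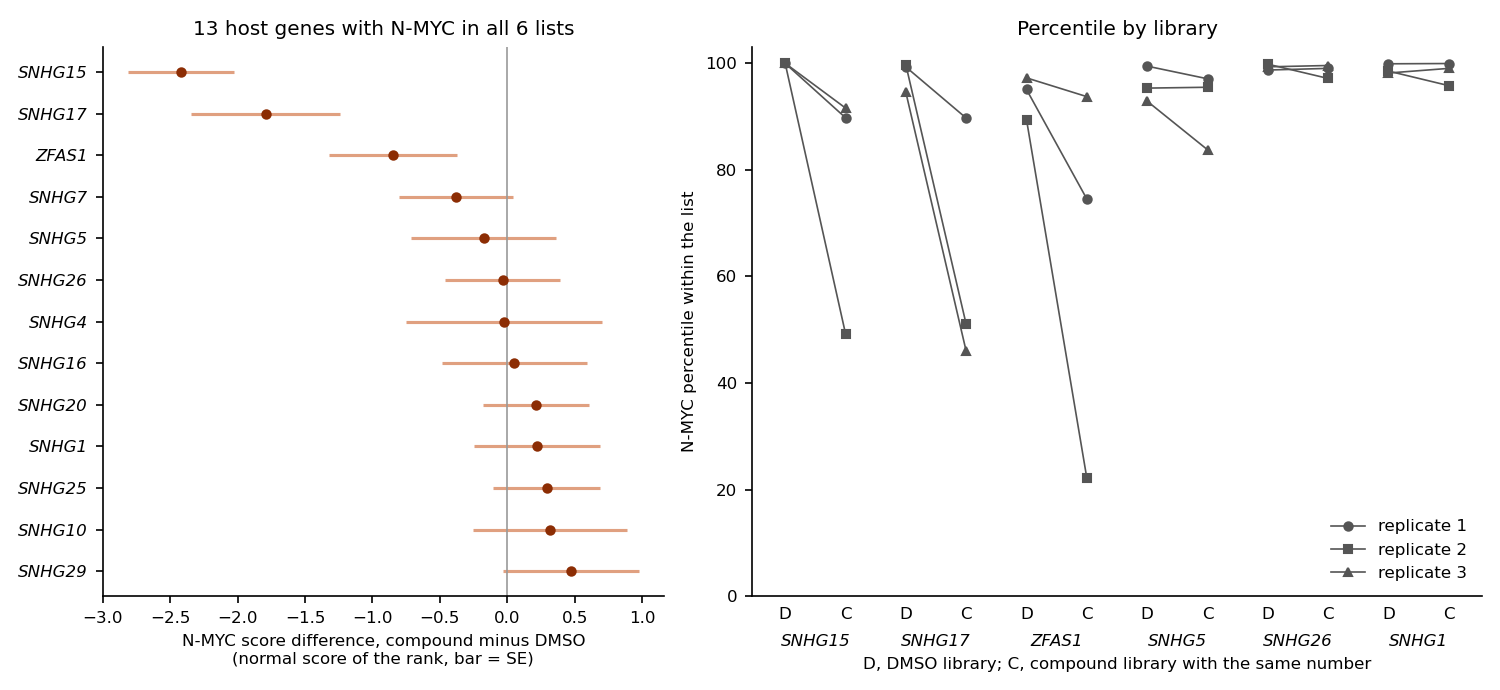
Left, N-MYC score difference between compound and DMSO (horizontal axis, normal score of the rank among 1911 features, bar = SE) for the 13 members with a peak in all 6 lists (vertical axis). Right, N-MYC percentile within the list (vertical axis) for 6 of them, with lines joining libraries of the same number; SNHG15 and SNHG17 fall in each pair, while SNHG26 and SNHG1 stay above 95.

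Split by WDR5 in DMSO, a description added after the values were seen, most features with the strongest WDR5 had lower N-MYC scores with the compound, while the other sets lay around 0. The ranges of all the sets overlapped. The sets were not matched on N-MYC rank in DMSO, where a feature near the top has little room to rise. Of the 29 tested features whose WDR5 peak was above the 90th percentile in every DMSO library, 25 (86.2%) had a lower N-MYC score with the compound, with a median difference of -0.387 (10th to 90th percentile -1.82 to 0.0475). Of 634 with weaker WDR5 it was 53.5% (median -0.0251, from -0.452 to 0.385), and of 1248 where WDR5 was not called 46.6% (median 0.021, from -0.436 to 0.494). SNHG15 and SNHG17 belong to the 29. The members of the 634 were ZFAS1, at -0.846 with 22 features lower, and SNHG5, SNHG26, SNHG16, SNHG20, SNHG1 and SNHG25, at -0.174 to 0.291.

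WDR5 itself was called at 5 members with the compound, GAS5, SNHG15, SNHG9, SNHG25 and SNHG17, against 0.854% of all genes, and all 5 were among the 13 of DMSO. Each of the 5 rested on libraries 1 and 3, so without either the count was 0. Here too the overlap with DMSO calls over all genes was not counted, so that of the members cannot be read as particular to them. No test was made, because the lists of replicates 2 and 3 held 15 and 401 peaks, and no member was in that of replicate 2. In replicate 1, where the compound list was the longer one (5973 peaks against 4891), 16 members had a peak with the compound and 19 in DMSO. Of all genes, 10.3% had a peak with the compound and 12.4% in DMSO in that replicate. There SNHG15 stood at 82, GAS5 at 84.3, SNHG9 at 44.2, SNHG11 at 62.3 and SNHG17 at 97.2. In replicate 3 the values were 80.3 at SNHG15, 68.8 at GAS5, 63.6 at SNHG9 and 1.75 at SNHG17. The fold at SNHG15 was 5.06 and 5.98 in those lists, where DMSO gave 57.9 to 70. At SNHG17 the fold was 44.8 in DMSO and 6.4 with the compound in replicate 1, and 29.2 and 2.94 in replicate 3. The fold at SNHG17 was lower in both pairs, while its percentile was near that of DMSO in replicate 1 and at the bottom of the shorter list in replicate 3. The highest fold of the whole WDR5 list was also lower with the compound, 51.2 against 91.7 in replicate 1 and 37.6 against 100 in replicate 3.

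Ranks among the 1570 features that both replicate 1 lists held put these values in context. SNHG9 fell from 98.2 to 39.8, and 87 features fell at least as far; SNHG15 fell from 98.5 to 77.2 (359 features), GAS5 from 97.2 to 80.3 (422) and SNHG17 from 96.9 to 92.5 (621). Of the 79 features above the 95th percentile of the DMSO ranks, 22.8% were above the 90th percentile with the compound, with a median of 67. Features chosen for a high DMSO rank have little room to rise, so some fall follows from the choice alone. The reverse choice, by compound rank, was not made. A feature low in the DMSO ranks could not fall as far, so the counts in brackets also depend on where features started. In replicate 3, over 215 shared features, SNHG17 fell from 87 to 0.93 (2 features fell at least as far), GAS5 from 99.1 to 60 (34), SNHG9 from 92.1 to 56.3 (38) and SNHG15 from 98.6 to 73 (44). For N-MYC in replicate 1, over 6137 shared features, 87.7% of the 308 features chosen in the same way were above the 90th percentile with the compound, and SNHG15 and SNHG17, at 86.5 and 86.4, were not. In replicate 2, over 1972 features, SNHG15 fell from 99.7 to 49.3 (29 features) and SNHG17 from 98.7 to 51 (35). In replicate 3, over 6055, SNHG15 fell from 99.9 to 86.9 (1248) and SNHG17 from 91.3 to 34 (27).

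Genes of snoRNA particles, of their assembly and of nonsense-mediated decay were called for N-MYC more often than for WDR5, as were genes in general (24.7% and 5.45%). All 8 core snoRNP proteins were called for N-MYC in DMSO and 1 for WDR5, DKC1, the pseudouridine synthase of H/ACA particles (N-MYC 98.8 ± 0.925, n = 3; WDR5 73.5 ± 22.4, 2 of 3 libraries). Of 12 snoRNP assembly factors, 8 had N-MYC and 2 had WDR5: TCOF1, a nucleolar factor of ribosomal RNA synthesis and modification (WDR5 81.8 ± 15.5, n = 3), and NAF1, an H/ACA assembly factor (36.8 ± 11.2, 2 of 3 libraries). Of 10 nonsense-mediated decay factors, 6 had N-MYC and 1 had WDR5, SMG1, a kinase of that pathway (58.4 ± 8.45, 2 of 3 libraries). Other genes with a snoRNA in their span by GENCODE numbered 515, of which 49.1% had N-MYC and 17.9% had WDR5; by RefSeq, which lists more snoRNAs, they numbered 595, with 51.8% and 16.6%. Most of the 515 code for protein (424), and among the 91 lncRNA genes the shares were 19.8% and 9.89%. The 2 of the 515 with the highest mean WDR5 percentile, RPS3 and RPL5, which encode ribosomal proteins, reached 99.7 ± 0.149 and 99.2 ± 0.719 (SD, n = 3), beside 99.3 ± 0.2 at SNHG15. The lowest of those called were TEX14 (1.37 ± 0.769) and DUS4L-BCAP29 (15.7 ± 12.8).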

How the data were processed

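ChIP-seq peak lists of N-MYC and WDR5 from CHP-134 (12 lists) and IMR-32 (4) were used; 6 IgG samples were not analysed here. The authors mapped the trimmed reads with Bowtie2 (hg19) and ran MACS2 (q-value 0.05), with 1 list deposited per library; versions are not given in the sources used here. The deposited columns are fold enrichment (a ratio), −log10 p-value and −log10 q-value, an integer score, and the summit. Because the values are ratios against background, ranks within a list were the main comparison. Some folds are printed beside the ranks, and log2 folds were fitted as an alternative, though folds of separate lists are not on one scale. Listing depends on depth, which is unknown.

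TSSs came from basic transcripts of GENCODE 44 mapped to GRCh37 (84637 TSSs; 152 of members). RefSeq (GRCh38.p14) gave the snoRNAs lying within the span of each gene on that build, on either strand, and no RefSeq position was set against a peak. GENCODE on GRCh37 lacks many snoRNAs. For each gene and list, the peak of highest fold near its TSSs was used. Of these peaks, the one with the best q-value over the libraries gave the E-box windows, the printed stretches and the exon or intron position. limma 3.58.1 (R 4.3.3) was fitted to normal scores, with Benjamini-Hochberg adjustment and a threshold of 0.05; p-values measure the spread between libraries, which may be technical. The join and the fit were tested on simulated data. Same-numbered libraries of DMSO and compound deviated together (correlations across features 0.655, 0.624 and 0.676), as did N-MYC and WDR5 of DMSO (0.434, 0.418 and 0.432), so their numbers were taken to pair them; the lines were not paired (-0.0996 to 0.0449). Genes named with all values were those called for WDR5; of the rest, the 3 highest and 3 lowest by mean percentile. Descriptions added after seeing the data were the ranks within replicates, the split by WDR5 strength, RefSeq snoRNAs and TOP starts of ribosomal protein genes. Members, lists and tests were chosen with earlier results of these data known. The values of 1 called feature that is no member are not reported here.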

Additional observations from a re-analysis of the deposited data

How the results depend on the processing

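Of the recomputed counts and distances, 131 stayed within 1.5 times the reported count or 1 SD of the distance, and 26 did not. With equal numbers of strongest peaks per list, WDR5 was called at 6 members and both proteins at 5 in CHP-134 DMSO; with 1 library enough, both proteins were called at 19 and WDR5 with the compound at 16. With every library required, N-MYC was called at 13 and WDR5 at 0 with the compound. Leaving out 1 compound library at a time gave 13 to 22 members for N-MYC (13 without library 1 or 3) and 0 to 5 for WDR5 (0 without library 1 or 3). E-box counts were 5 at 50 bp and 16 at 250 bp.

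With the replicate block, features called were 4 for N-MYC with the compound, 17 for N-MYC between lines, 0 for WDR5 between lines and 323 for WDR5 against N-MYC; it changed no other call of a member. On log2 folds the counts were 1 (SNHG15, limma, adjusted p = 0.049), 0, 153 (5 of 7 members) and 284, and 19 for the difference of the line differences, SNHG20 among them. With a −log10 q of at least 5 they were 0, 4, 11, 169 and 2. Leaving out any 1 library gave 0 to 1 for WDR5 between lines. SNHG15 stayed lower with the compound without each of the 6 libraries (score differences -2.5 to -2.05; limma, adjusted p 0.56 to 1), as did SNHG17 (-2.19 to -1.32; adjusted p 1). Where calls differ, the cause was not tested. The limits are short compound lists, no read counts, 2 or 3 libraries per group and promoters shared with other genes.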
